A study of Mus musculus with 36 samples.

Results

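Of 7585 Ago2-bound peaks that the authors annotated in mouse colonic tumours, 453 (5.97%) held a strong seed match to miR-18, miR-19 or the miR-25/92 group. A peak was taken when the authors' list of seed matches for it named one of these families either as an 8mer (bases 2 to 8 of the miRNA paired, with an A opposite base 1, in the usual sense of the term) or as a 7m8 (bases 2 to 8 paired). The choice used sites only and no measured value. There were 94 peaks with a miR-18 site, 190 with a miR-19 site and 179 with a miR-25/92 site. Of these, 443 peaks held a site of 1 family and 10 held sites of 2 families. They lay on 432 genes.

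The peaks came from HEAP, a form of CLIP in which an Ago2 protein fused to a Halo tag is pulled down on resin from UV-crosslinked tissue together with the miRNAs and the mRNA fragments it holds. All tumours came from C57BL/6 mice with Apc(fl/fl), Villin-CreER/+ and the tagged allele Halo-Ago2/+. The G12D group carried K-Ras-G12D/+ as well, and the group called WT here did not, so that WT refers to the K-ras allele alone and Apc was deleted in both groups. Villin-CreER restricts recombination to gut epithelium, and 4-hydroxytamoxifen was given as an enema to animals 8 to 12 weeks old. Tumour lawns were taken along the colon from animals that had become moribund, so they hold whatever other cells the scraped tissue held. There were 6 G12D and 6 WT samples, 3 of each genotype in each of 2 batches. The labels number the samples but do not say that each is a separate mouse, so the p-values speak only of the spread among these samples, part of which may be technical. Values are reads per peak or per miRNA after the authors' scaling for library size, called normalised counts here.

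The miR-17-92 cluster and its paralogues are transcribed as single precursors that yield miRNAs of several unlike seeds. They are known as growth-promoting miRNAs in lymphoid and epithelial tumours, and their transcription is driven by Myc, which is raised after Apc loss. Within the cluster, miR-19 is best known as a driver of growth in lymphoma models, miR-92a for repressing the pro-apoptotic gene Bcl2l11, and miR-18 is the close relative of miR-17 with a shifted set of targets.

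The mature miRNAs that define the sites are shown first, because the families are defined by their seeds. Sequences are RefSeq entries on GRCm38.p6, written 5′ to 3′, with the seed (bases 2 to 8) in capitals. The first set is the miR-18-5p seed, carried by miR-18a at chr14:115043867-115043889 on the plus strand and by miR-18b on chromosome X, with miR-17-5p of the same chromosome 14 cluster for comparison.
miR-18a-5p: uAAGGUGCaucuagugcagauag
miR-18b-5p: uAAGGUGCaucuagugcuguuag
miR-17-5p: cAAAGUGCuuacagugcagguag
Counted from 1 at the 5′ end, A4G was the sole seed difference between miR-17-5p and miR-18a-5p, among 6 differences over 23 bases. The miR-18 entries of the authors' list also included the seed of the opposite arm, miR-18a-3p, which is shared with the unrelated miR-7069-3p and not with miR-18b-3p.
miR-18a-3p: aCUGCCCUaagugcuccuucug
miR-7069-3p: cCUGCCCUgccaaccccuaca
miR-18b-3p: uACUGCCCuaaaugccccuucu
The miR-19 seed is carried by miR-19a at chr14:115044048-115044070 and by miR-19b from a locus on chromosome 14 and another on chromosome X. The substitution U11C, outside the seed, is the only difference between them.
miR-19a-3p: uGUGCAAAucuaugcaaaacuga
miR-19b-3p: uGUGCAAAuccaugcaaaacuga
The miR-25/92 seed is carried by miR-92a of the chromosome 14 and X clusters, by miR-25 on chromosome 5, by miR-32 on chromosome 4 and by miR-92b on chromosome 3.
miR-92a-3p: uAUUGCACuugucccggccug
miR-25-3p: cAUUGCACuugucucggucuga
miR-32-5p: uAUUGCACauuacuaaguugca
miR-92b-3p: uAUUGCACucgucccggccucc
Between miR-92a-3p and miR-25-3p the differences were U1C, C14U and C18U, whereas miR-32-5p differed from miR-92a-3p at 10 of 21 bases, none of them in the seed. Peaks with miR-25/92 sites can therefore not be assigned to one of these miRNAs. miR-363-3p and miR-367-3p carry the same seed and were not analysed here.

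The 3 families differed first in the kind of match. An 8mer was present in 116 of 179 miR-25/92 peaks (64.8%), in 86 of 190 miR-19 peaks (45.3%) and in 29 of 94 miR-18 peaks (30.9%). Within miR-18, 50 peaks carried the miR-18-5p match and 45 the miR-18-3p/miR-7069-3p match, with 1 peak carrying both. The 8mer share was 38.0% for the 5p match (19 of 50) and 22.2% for the 3p match (10 of 45). These shares describe the peaks that the authors called, and no test was made of them.

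Most of the peaks lay in 3′ UTRs, by the authors' annotation. The share was 63.8% for miR-18, 67.4% for miR-19 and 65.4% for miR-25/92, and 65.6% over the 453 peaks, against 51.9% of all annotated peaks. Introns held 6.38%, 9.47% and 6.70% of the miR-18, miR-19 and miR-25/92 peaks, against 12.1% of all annotated peaks. Of the miR-25/92 peaks with an 8mer, 73.3% were in 3′ UTRs, and of those with only a 7m8, 50.8%. For miR-19 the same shares were 68.6% and 66.3%, and for miR-18 they were 62.1% and 64.6%.

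Their median level over the 12 mRNA libraries was 23.5 normalised counts for miR-18, 23.4 for miR-19 and 23.0 for miR-25/92, against 18.7 for all annotated peaks. A mean of at least 100 was reached by 8 miR-18 peaks, 23 miR-19 peaks and 19 miR-25/92 peaks. The median width was 58 bases, 58 bases and 56 bases for the families in the same order, against 56 bases for all annotated peaks.

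The words that these sites spell overlap with those of other families. A 7m8 match to miR-19 reads TTTGCAC in the target, one to miR-130/miR-301 reads TTGCACT, one to miR-148/miR-152 reads TGCACTG and one to miR-17 reads GCACTTT. These words are given for the strand of the transcript only. The last 6 letters of the miR-19 word are the first 6 letters of the miR-130/miR-301 word, so that the 8 bases TTTGCACT hold both. The 9 bases TTTGCACTG add the miR-148/miR-152 word, and the 10 bases TTTGCACTTT hold the words of miR-19, miR-130/miR-301 and miR-17. Of 190 miR-19 peaks, 78 (41.1%) also held a miR-130/miR-301 match, against 1.78% of all annotated peaks, and these 78 made up 57.8% of the 135 miR-130/miR-301 peaks. A miR-17 family match was held by 41 miR-19 peaks (21.6%, against 4.98% of all annotated peaks), of which 30 held a miR-130/miR-301 match too. A miR-148/miR-152 match was held by 18 (9.47%, against 1.45%), and all 18 also held the miR-130/miR-301 match. How much of this follows from the shared letters was not tested.

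The miR-25/92 word, GTGCAAT, shares at most 1 letter with the start or end of any of these words. Of 179 miR-25/92 peaks, 1 held a miR-17 match, 1 a miR-148/miR-152 match and 0 a miR-130/miR-301 match. No other family's strong site was annotated in 107 miR-25/92 peaks (59.8%), against 59 miR-19 peaks (31.1%), 36 miR-18 peaks (38.3%) and 37.5% of all annotated peaks. The miR-18-5p word, GCACCTT, can follow the miR-19 word with 4 letters shared (TTTGCACCTT), and 6 peaks held both. No peak held both a miR-19 and a miR-25/92 site, and 3 peaks held a miR-18-3p/miR-7069-3p site and a miR-25/92 site.

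**Figure D1:**
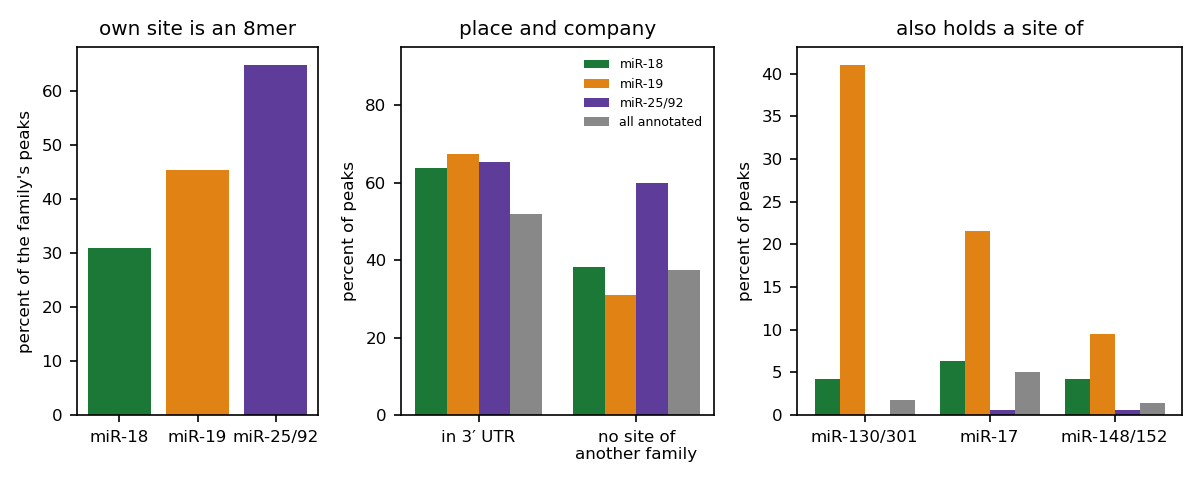
Make-up of the 3 families of peaks, as percent of peaks: the share whose own site is an 8mer (left), the share in 3′ UTRs and the share with no strong site of another family (middle), and the share that also holds a miR-130/miR-301, miR-17 or miR-148/miR-152 site (right). Green, orange and purple bars are miR-18, miR-19 and miR-25/92 peaks and grey bars all annotated peaks. The 8mer share is 64.8% for miR-25/92 and 30.9% for miR-18, and the miR-130/miR-301 share is 41.1% for miR-19.

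Among the Ago2-bound miRNAs, miR-18a-5p was the member of the 3 families that stood apart between genotypes. It ranged from 1371 to 1573 normalised counts with a median of 1520 in G12D tumours, and from 891 to 1329 with a median of 1181 in WT tumours. All 6 G12D samples lay above all 6 WT samples, which 1.06% of the 284 tested miRNAs did. Its mean was 1501 ± 71.9 in G12D tumours and 1145 ± 188 in WT tumours (SD, n = 6 each). The log2 fold change was 0.41 (SE 0.11), and the adjusted p of 0.0572 in limma, with batch in the model and two-sided, did not pass 0.05. DESeq2, run on the reads recovered from the normalised counts, gave an adjusted p of 0.0104. Without WT replicates 5 and 6, whose miR-18a-5p values were the lowest, the log2 fold change was 0.26. The adjusted p was then 0.161 in limma and 0.0916 in DESeq2, so that neither passed. The mRNA libraries of these replicates were shallow, but their miRNA libraries were not, at 429993 and 438721 reads. The fold change was 0.24 within batch 1 and 0.57 within batch 2. In limma, 0 miRNAs of the 3 families passed the threshold, where 11 of 284 miRNAs (3.87%) did, 5 of them (1.76%) higher in G12D tumours. In DESeq2, 1 did, where 27 of 284 (9.51%) did, 10 of them (3.52%) higher in G12D tumours. miR-18a-3p, whose sites are counted with miR-18, was not among the miRNAs in these family counts.

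The opposite arm, miR-18a-3p, ranged from 273 to 422 normalised counts with a median of 350 in G12D tumours, and from 171 to 399 with a median of 262 in WT tumours. The groups overlapped, and the log2 fold change of 0.40 (SE 0.16) had an adjusted p of 0.201 in limma. DESeq2 gave 0.188 with all samples. Without WT replicates 5 and 6 the adjusted p was 0.0978 in limma and 0.0309 in DESeq2. miR-18b-5p was near 0 in each library, at 0 to 1.42 normalised counts in G12D tumours and 0 to 4.72 in WT tumours, so that miR-18a made up nearly all of the miR-18-5p signal.

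The rest of the cluster's products overlapped between genotypes. miR-19b-3p, rank 8 of 596 listed miRNAs, ranged from 7399 to 16934 normalised counts in G12D tumours (median 11612) and from 9044 to 13555 in WT tumours (median 11185). miR-19a-3p had a median of 6983 in G12D tumours and 6698 in WT tumours. miR-92a-3p had a median of 5434 in G12D tumours and 5123 in WT tumours. The log2 fold changes were 0.01 (SE 0.11) for miR-19b-3p, 0.08 (SE 0.11) for miR-19a-3p and 0.08 (SE 0.10) for miR-92a-3p, and none passed in limma, with adjusted p-values of 0.960, 0.704 and 0.703. miR-25-3p, which comes from another cluster, ranged from 2341 to 3901 in G12D tumours (median 3012) and from 2885 to 4667 in WT tumours (median 3555), with a log2 fold change of −0.26 (SE 0.11) and an adjusted p of 0.203 in limma. miR-32-5p had a median of 110 in G12D tumours and 107 in WT tumours, and miR-92b-3p 15.4 in G12D tumours and 14.8 in WT tumours.

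Within single libraries, the ratio of miR-18a-5p to miR-17-5p, which share one precursor, was 0.336 ± 0.0699 in G12D tumours and 0.258 ± 0.0378 in WT tumours (SD, n = 6 each). 3 of 6 G12D samples lay above all WT samples. The ratio of miR-25-3p to miR-92a-3p was 0.535 ± 0.0832 in G12D tumours and 0.670 ± 0.0888 in WT tumours. Summed over members, the miR-19 family held 18925 ± 5424 normalised counts in G12D tumours and 17972 ± 2496 in WT tumours, the miR-25/92 group 9157 ± 1973 in G12D tumours and 9442 ± 2000 in WT tumours, and miR-18 1502 ± 72.2 in G12D tumours and 1146 ± 188 in WT tumours. As a share of all listed miRNA signal, miR-18 took a mean of 0.400% in G12D tumours and 0.300% in WT tumours. On this scale the genotypes overlapped, at 0.288% to 0.487% in G12D tumours and 0.242% to 0.358% in WT tumours. In 5 of 6 G12D samples the miR-18 share was above all WT samples. The mean share of miR-19 was 4.84% in G12D tumours and 4.73% in WT tumours, and that of miR-25/92 2.36% in G12D tumours and 2.45% in WT tumours.

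**Figure D2:**
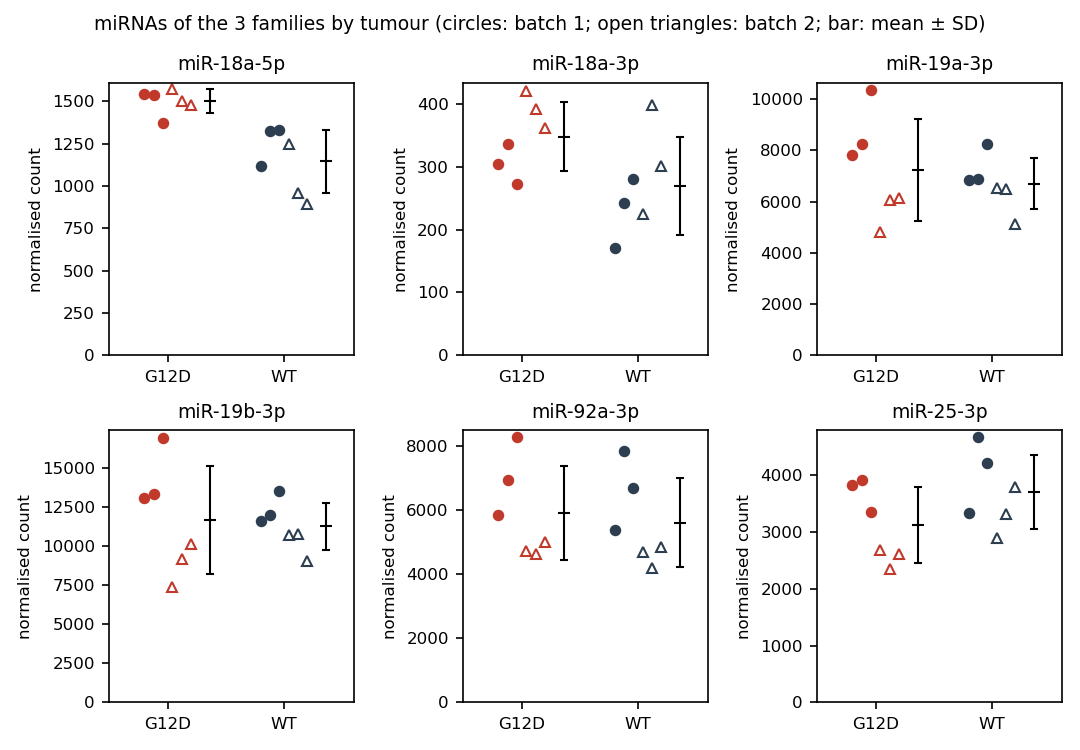
Normalised counts of 6 miRNAs of the families in each tumour's miRNA library, G12D in red at left and WT in dark blue at right. Filled circles are batch 1, open triangles batch 2, and bars the mean ± SD of 6 samples. The miR-18a-5p values of G12D tumours, 1371 to 1573, lie above the WT values, 891 to 1329, and in the other panels the genotypes overlap.

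Peak signal has limits that touch each result below. It rises with the amount of an mRNA and with its occupancy by Ago2, and input libraries were not analysed here, so that these cannot be told apart. In bulk tissue, fewer cells of a type and less RNA per cell cannot be told apart either. Reads in peaks ranged from 125384 to 974013 in G12D mRNA libraries and from 30607 to 770237 in WT mRNA libraries. WT replicates 5 and 6, both of batch 2, were the shallowest, with 53.6% and 27.4% of the 453 peaks at 0, against at most 2.87% in each other library. Peaks were present on 9 of 12 colon epithelium marker genes, with summed normalised counts of 4303 to 10218 in G12D tumours and 811 to 10136 in WT tumours. They were present on 4 of 12 fibroblast and smooth muscle genes, with sums of 262 to 791 in G12D tumours and 18.1 to 706 in WT tumours. Among leukocyte markers 1 of 10 had peaks, with sums of 39.4 to 116 in G12D tumours and 9.06 to 147 in WT tumours, while Ptprc, Cd3e, Itgam, Adgre1 and others had none. The part of these differences in the results was not tested.

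As a share of all peak signal in a library, the peaks of each of the 3 families differed between genotypes by less than 1 SD. The 453 peaks held 7.68% ± 0.739 of the signal in G12D tumours and 7.27% ± 1.99 in WT tumours (SD, n = 6 each). miR-19 peaks held 3.48% ± 0.336 in G12D tumours and 3.38% ± 1.44 in WT tumours. miR-25/92 peaks held 3.2% ± 0.553 in G12D tumours and 3.05% ± 0.575 in WT tumours. miR-18 peaks held 1.45% ± 0.266 in G12D tumours and 1.25% ± 0.404 in WT tumours, and for the miR-18-5p peaks alone the shares were 0.569% ± 0.0754 in G12D tumours and 0.470% ± 0.0878 in WT tumours. For the miR-18-5p peaks this difference, 0.0996 percentage points, was larger than the SD of either genotype. The genotypes overlapped, at 0.431% to 0.634% in G12D tumours and 0.327% to 0.574% in WT tumours. The lowest WT value was that of the shallow replicate 5. Over WT replicates 1 to 4, which leaves out replicate 6 (0.442%) too, the mean was 0.512%, within 1 SD of the G12D mean. The miR-18 share also differed by batch, from 1.18% to 1.25% in batch 1 and from 1.62% to 1.79% in batch 2 among G12D tumours, and from 1.10% to 1.19% in batch 1 and from 0.686% to 1.87% in batch 2 among WT tumours. For miR-19, the WT extremes were the shallow libraries, 1.64% in replicate 5 and 5.88% in replicate 6.

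**Figure D3:**
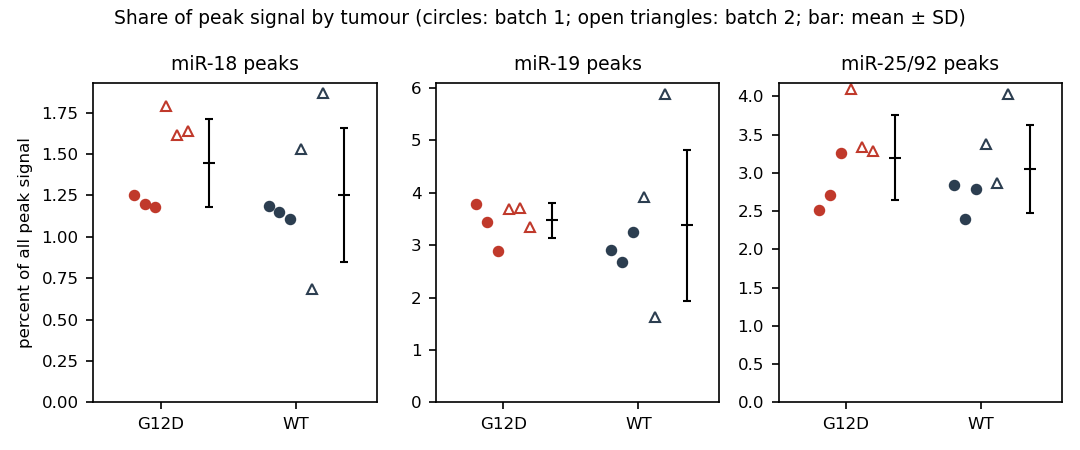
Percent of all normalised peak signal that fell on miR-18, miR-19 and miR-25/92 peaks in each tumour's mRNA library, G12D in red at left and WT in dark blue at right. Filled circles are batch 1, open triangles batch 2, and bars the mean ± SD of 6 samples. The genotypes overlap in each panel, and for miR-19 the WT values run from 1.64% to 5.88%.

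The comparison of G12D with WT tumours asks which Ago2-bound sites differed in tumours that carried oncogenic K-Ras. Of the 453 peaks, 451 had a mean of at least 5 normalised counts and were tested. In limma 0 of 451 passed an adjusted p of 0.05, where 0 of 7527 peaks tested (0.0%) did. The smallest adjusted p among the 451 was 0.108. At an unadjusted p under 0.05, 162 of 451 (35.9%) were higher in G12D tumours, against 35.9% of all tested peaks, and 0 were lower. Of the 453 peaks, 299 (66.0%) were in the peak list called in G12D tumours alone, and 4 in the WT list alone. For all annotated peaks the G12D list alone held 71.9%. The direction of these counts is therefore not independent of how the peaks were found. The median log2 fold change was 1.33 for miR-18 peaks, 1.34 for miR-19 peaks and 1.25 for miR-25/92 peaks, against 1.33 for all tested peaks. The shift of all peaks depends on the scaling, with a median of 0.61 under TMM factors and 0.07 under size factors that DESeq2 computed from these reads. Relative to all tested peaks, the family medians were 0.01, 0.01 and −0.07 for miR-18, miR-19 and miR-25/92. The median of all tested peaks was 0.43 within batch 1, 2.29 within batch 2 and 0.38 without WT replicates 5 and 6.

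Other fits called some of the peaks. DESeq2 called 39 of 451 higher (8.65%), against 10.1% of all tested peaks (10.5% in either direction), and 0 lower. By family these were 10 of 94 miR-18 peaks, 20 of 190 miR-19 peaks and 10 of 177 miR-25/92 peaks, with 1 of the 39 counted in both of its families. Within miR-18 they were 7 of 50 peaks with the 5p match (14%) and 3 of 45 with the 3p match (6.67%). In limma the median log2 fold change was 1.34 for both kinds of miR-18 peak. Without WT replicates 5 and 6, DESeq2 called 12 higher (2.66%), against 2.59% of all tested peaks (2.7% in either direction), a setting chosen after the data were seen. These were on Wdr11, Ahnak and Myof among miR-18 peaks, on Nbeal2, Dhx32, Rab3gap1, Reep3, Mlec, Gpr137b and Gprc5a among miR-19 peaks, and on Osbpl2 and Lmbr1l, besides Wdr11, among miR-25/92 peaks. With all samples, DESeq2 gave adjusted p-values of 0.0894 for Wdr11 and 0.129 for Osbpl2, so neither was called. For Osbpl2 the highest WT value, 1228, was that of the removed replicate 5. Limma without WT replicates 5 and 6 called 0, against 0.0399% of all tested peaks. With a pseudocount of 5 limma called 25 higher (5.54%), against 6.72% of all tested peaks (6.82% in either direction). In batch 2 alone it called 16 of 440 (3.64%), against 3.55% of all tested peaks. Under DESeq2's own size factors it called 1 peak (0.222%), which was higher, against 1.58% of all tested peaks. Over all tested peaks the balance of calls turned with that scaling, with 44 higher (0.585%) and 75 lower, where the authors' size factors gave 760 higher and 27 lower. Limma without WT replicate 4 called 221 of 451 (49.0%), against 45.3% of all tested peaks. edgeR's quasi-likelihood test called 0, against 0.133% of all tested peaks in either direction and 0.0531% higher. In the authors' deposited table, 38 of 449 peaks with an adjusted p were higher below 0.05 and 0 were lower, against 9.85% higher among all annotated peaks. The deposited peak list called in WT tumours overlapped 34.0% of the 453 peaks, against 28.1% of all annotated peaks. The G12D list alone held 299 (66.0%, against 71.9% of all annotated peaks) and the WT list alone 4 (0.883%, against 1.96%). The balance of higher and lower calls in these fits is therefore not independent of how the peaks were found.

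**Figure D4:**
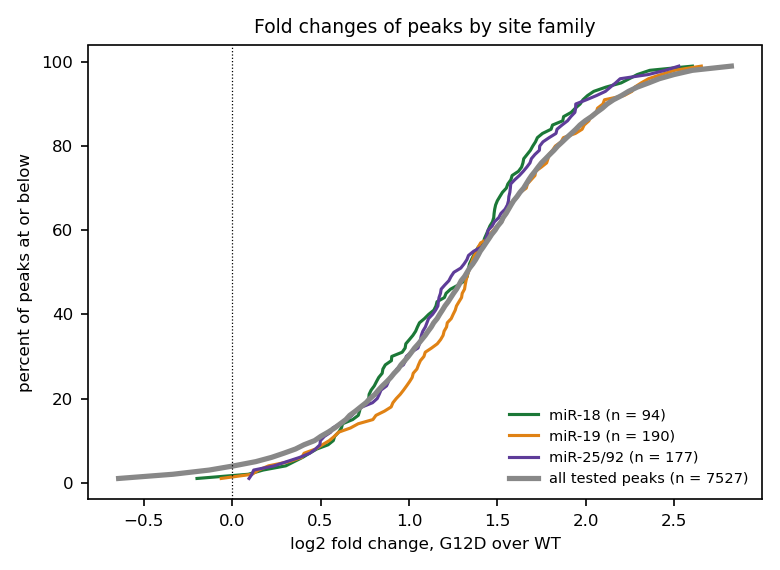
Spread of the log2 fold change, G12D over WT, from limma on log2(normalised count + 1) with batch in the model. The x axis is the fold change and the y axis the percent of peaks at or below it, for miR-18 (green, 94 peaks), miR-19 (orange, 190), miR-25/92 (purple, 177) and all 7527 tested peaks (grey). The curves lie close together, with medians of 1.33, 1.34, 1.25 and 1.33.

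Peaks with and without these sites were also set side by side within genes. In 139 genes that had both a 3′ UTR peak with a site of the 3 families and a 3′ UTR peak without one, the fold change of the first minus that of the second had a median of −0.0053 on the log2 scale. It was positive in 67 genes and negative in 72. By family the median was −0.0045 in 32 genes for miR-18, 0.02 in 66 genes for miR-19 and −0.05 in 48 genes for miR-25/92. Without WT replicates 5 and 6 the median over the 139 genes was 0.09. The level at the peak with the site was the higher one in 78 of 139 genes.

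Among miR-18 peaks the highest was on Wdr11, a WD-repeat protein of endosome-to-Golgi traffic, at chr7:129607753-129607797 in an exon. It carried an 8mer to miR-18-3p/miR-7069-3p and a 7m8 to miR-25/92. It ranged from 357 to 2494 normalised counts with a median of 1129 in G12D tumours, and from 104 to 1226 with a median of 223 in WT tumours. The samples of both genotypes split by batch, with batch 2 higher in all but WT replicate 5. The log2 fold change was 1.44 (SE 0.59, adjusted p = 0.115 in limma), close to the median of all peaks, and 0.89 without WT replicates 5 and 6.

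Next by level came Iffo2, an intermediate filament family member, with a median of 478 in G12D tumours and 94.1 in WT tumours, and Sertad3, a SERTA-domain regulator of transcription with 8mers to both miR-18-3p/miR-7069-3p and miR-25/92, with 329 in G12D tumours and 165 in WT tumours. Cldn7, a tight-junction claudin of colon epithelium, had a median of 206 in G12D tumours and 180 in WT tumours. These peaks carried the 3p match, as did Wdr11. The highest peaks with a miR-18-5p match were on Gigyf1, which represses translation of bound mRNAs, with a median of 204 in G12D tumours and 127 in WT tumours, and on Dusp16, a phosphatase that acts on the JNK and p38 kinases, with 134 in G12D tumours and 84.0 in WT tumours. Both were 8mers in 3′ UTRs, and in each of these peaks the genotypes overlapped.

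The miR-18-5p 8mer in an exon of Ahnak, which encodes a giant scaffold protein, was 1 of 9 peaks of the 3 families in which all 6 G12D samples lay above all 6 WT samples (2.00% of 451, against 1.7% of all tested peaks). It lay at chr19:9015408-9015475 and ranged from 114 to 233 normalised counts with a median of 164 in G12D tumours, and from 27.2 to 90.9 with a median of 61.2 in WT tumours. Its log2 fold change was 1.49 (SE 0.58, adjusted p = 0.110 in limma), and DESeq2 gave an adjusted p of 0.0165 with all samples and 0.00532 without WT replicates 5 and 6. Without those libraries the log2 fold change was 1.04. The other 8 peaks without overlap, named after their values were seen, were on Sema4b and the locus RP23-176J13.6 for miR-18, Gprc5a, Eif4h, Crebrf and Unc5cl for miR-19, and Notch2 and Lpin1 for miR-25/92. The Notch2 peak, on a receptor of cell-to-cell signalling, ranged from 77.3 to 100.2 in G12D tumours and from 0 to 74.6 in WT tumours. A second Ahnak peak, with a miR-18-3p/miR-7069-3p 8mer, showed no such gap, at 13.7 to 39.6 in G12D tumours and 0 to 43.6 in WT tumours.

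The miR-18 peaks with the smallest unadjusted p and a mean of at least 20, a choice that favours large changes, were on Myof, Nedd9 and Mynn, and each carried the miR-18-5p match. Myof, a ferlin of membrane repair, ranged from 13.9 to 57.3 normalised counts with a median of 38.5 in G12D tumours, and from 3.91 to 26.5 with a median of 5.64 in WT tumours. Its log2 fold change was 1.87 (SE 0.63, adjusted p = 0.108 in limma), and DESeq2 gave adjusted p-values of 0.00557 with all samples and 0.00109 without WT replicates 5 and 6, where the log2 fold change was 1.77. Nedd9, a focal adhesion scaffold, ranged from 14.5 to 156 in G12D tumours and from 0 to 70.6 in WT tumours. Mynn, a BTB zinc finger protein, ranged from 13.1 to 74.4 in G12D tumours and from 0 to 36 in WT tumours. Their log2 fold changes of 2.60 (SE 0.88) and 2.28 (SE 0.76) had adjusted p-values of 0.108 in limma, and without WT replicates 5 and 6 they were 0.81 and 1.07. DESeq2 gave adjusted p-values of 0.065 for Nedd9 and 0.0397 for Mynn with all samples, and 0.186 and 0.108 without WT replicates 5 and 6. The Nedd9 and Mynn peaks were in the G12D peak list alone, so their direction is not independent of how they were found.

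Among miR-19 peaks the highest was on Ereg, which encodes the EGF receptor ligand epiregulin, in its 3′ UTR at chr5:91093341-91093397. It held a 7m8 to miR-19, a pair of 7m8 matches to miR-130/miR-301 and one to miR-17. It ranged from 488 to 1766 normalised counts with a median of 1138 in G12D tumours, and from 12.1 to 661 with a median of 329 in WT tumours. In 5 of 6 G12D samples it was above all WT samples, and WT replicates 5 and 6 were far below the other WT libraries. The log2 fold change was 2.84 (SE 0.80, adjusted p = 0.108 in limma), and 1.17 without those libraries. For Ereg, DESeq2 gave an adjusted p of 0.0561 with all samples and 0.112 without those libraries. Tgoln1, a trans-Golgi protein whose peak held miR-17 and miR-19 matches, had medians of 808 in G12D tumours and 401 in WT tumours and a log2 fold change of 1.87 (SE 0.66, adjusted p = 0.108 in limma), or 0.63 without the shallow libraries. For Tgoln1, DESeq2 gave an adjusted p of 0.107 with all samples and 0.203 without the shallow libraries.

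In several of the highest miR-19 peaks the genotypes spanned much the same range. Sema4c, a semaphorin whose peak also held let-7 and miR-125 8mers, ranged from 170 to 1115 in G12D tumours and from 142 to 2092 in WT tumours. Gpcpd1, a glycerophosphocholine phosphodiesterase, ranged from 92.6 to 2190.0 in G12D tumours and from 131 to 1258 in WT tumours. Ivns1abp, a kelch-domain protein, had medians of 492 in G12D tumours and 223 in WT tumours, with the genotypes overlapping.

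Of the 451 tested peaks, 6 had a negative log2 fold change, and H19 was the one with the largest size. H19 is an imprinted long noncoding RNA and the host of miR-675. Its peak at chr7:142575791-142575844 held matches to miR-19, miR-130/miR-301 and miR-148/miR-152. It ranged from 33.3 to 749 normalised counts with a median of 115 in G12D tumours, and from 115 to 2615 with a median of 333 in WT tumours. The genotypes overlapped widely. The log2 fold change was −1.32 (SE 0.70, adjusted p = 0.155 in limma), −1.65 within batch 1, −0.996 within batch 2 and −1.54 without WT replicates 5 and 6. Relative to the median of all peaks it was −2.65.

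The miR-19 peaks of smallest unadjusted p, besides Ereg, were on Nbeal2 and Dhx32. Dhx32, a DEAH-box helicase, ranged from 53.9 to 289 normalised counts with a median of 138 in G12D tumours, and from 18.1 to 97.3 with a median of 32 in WT tumours. 5 of 6 G12D samples were above all WT samples, and the highest WT sample was replicate 4. The log2 fold change was 1.95 (SE 0.61, adjusted p = 0.108 in limma), and DESeq2 gave adjusted p-values of 0.00619 with all samples and 0.00178 without WT replicates 5 and 6, where the log2 fold change was 1.32. Nbeal2, a BEACH-domain protein needed for platelet granules, had a 3′ UTR 8mer and ranged from 148.2 to 809 in G12D tumours and from 54.4 to 337 in WT tumours. Its log2 fold change was 1.87 (SE 0.58, adjusted p = 0.108 in limma), with adjusted p-values of 0.0103 and 0.00212 in DESeq2 with all samples and without WT replicates 5 and 6, where the log2 fold change was 1.28.

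Gpr137b, a lysosomal membrane protein, and Tnrc6a, the GW182 protein that binds Ago and recruits the deadenylases, were the genes with the most miR-19 peaks, 2 each. The Gpr137b 3′ UTR peak with an 8mer ranged from 37.6 to 147 in G12D tumours and from 9.64 to 41.5 in WT tumours, and the 7m8 peak from 11.6 to 42.2 in G12D tumours and from 0 to 17.9 in WT tumours. Their log2 fold changes of 1.67 (SE 0.62) and 1.88 (SE 0.73) had adjusted p-values of 0.108 and 0.111 in limma, and 0.0151 and 0.0423 in DESeq2. Without WT replicates 5 and 6 the fold changes were 1.24 and 0.78, and DESeq2 then gave adjusted p-values of 0.0151 and 0.112. The Tnrc6a peaks had medians of 17.1 and 14.9 in G12D tumours, against 7.63 and 3.74 in WT tumours, with the genotypes overlapping. The Gpr137b 7m8 peak and both Tnrc6a peaks were in the G12D peak list alone, so their direction is not independent of how they were found. Gprc5a, an orphan receptor induced by retinoic acid, was named after its values were seen, as a miR-19 peak with no overlap of the genotypes. It ranged from 44.0 to 60.3 in G12D tumours and from 9.64 to 28.6 in WT tumours, with a log2 fold change of 1.34 (SE 0.59, adjusted p = 0.124 in limma) and an adjusted p of 0.0292 in DESeq2. Without WT replicates 5 and 6 the fold change was 0.93.

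Among miR-25/92 peaks the highest was on Fndc3b, a fibronectin type III domain protein, as an 8mer in the 3′ UTR at chr3:27418541-27418593. It ranged from 694 to 1934 normalised counts with a median of 1245 in G12D tumours, and from 28.9 to 772 with a median of 497 in WT tumours. In 5 of 6 G12D samples it was above all WT samples, and the WT libraries near the bottom were the shallow replicates 5 and 6. The log2 fold change was 2.45 (SE 0.74, adjusted p = 0.108 in limma), and 0.84 without them. For Fndc3b, DESeq2 gave an adjusted p of 0.0752 with all samples and 0.0635 without WT replicates 5 and 6. Slc12a2, the sodium, potassium and chloride cotransporter of secretory epithelium, had medians of 881 in G12D tumours and 331 in WT tumours. Osbpl2, an oxysterol-binding protein, had medians of 380 in G12D tumours and 169 in WT tumours, and Tax1bp1, an autophagy receptor, 407 in G12D tumours and 199 in WT tumours. Trim36, a ubiquitin ligase, ranged from 86.4 to 1534 in G12D tumours and from 85.2 to 1336 in WT tumours.

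Hps6, a subunit of a complex that forms lysosome-related organelles, and Gata6, a transcription factor of gut epithelium, were the other miR-25/92 peaks of smallest unadjusted p. Hps6 had a 3′ UTR 8mer and ranged from 31.8 to 112 in G12D tumours and from 0 to 49.4 in WT tumours. Gata6 ranged from 6.75 to 82.9 in G12D tumours and from 0 to 32.6 in WT tumours. Their log2 fold changes were 2.57 (SE 0.83) and 2.51 (SE 0.81), with adjusted p-values of 0.108 in limma, and 0.97 and 1.23 without WT replicates 5 and 6. For Hps6, DESeq2 gave 0.0533, and for Gata6 0.0405 with all samples and 0.156 without WT replicates 5 and 6. Both peaks were in the G12D peak list alone, a way of being found that favours higher values in G12D tumours. Their direction is therefore not independent of how they were found.

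**Figure D5:**
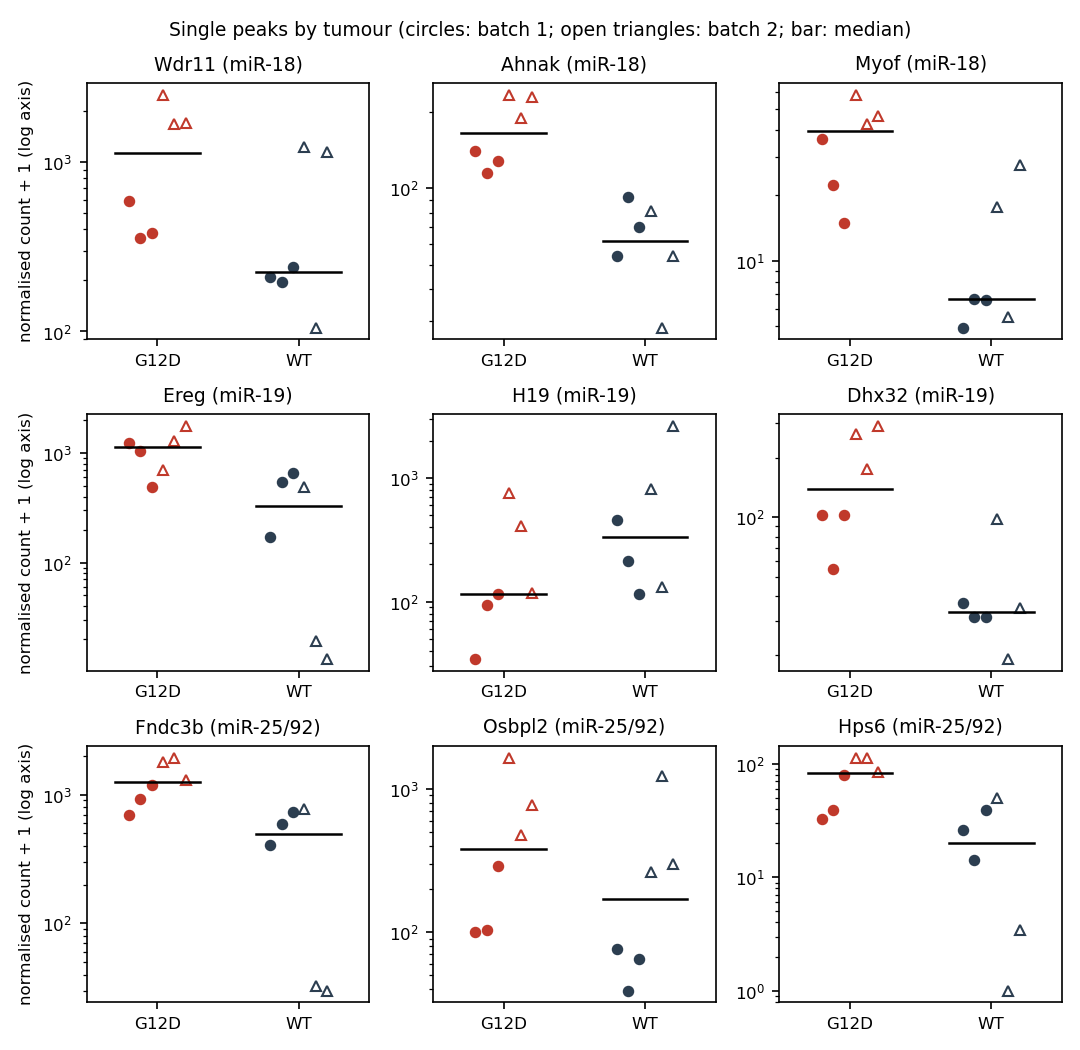
Normalised counts plus 1, on a log axis, of 9 peaks in each tumour's mRNA library, with miR-18 peaks in the top row, miR-19 in the middle and miR-25/92 in the bottom row. G12D tumours are in red at left and WT in dark blue at right, filled circles are batch 1, open triangles batch 2, and bars medians. For Ahnak the genotypes do not overlap, and for H19 the WT median of 333 lies above the G12D median of 115.

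Genes reported elsewhere as targets of these miRNAs were looked up from lists of such genes. Of 14 listed miR-19 targets, 11 had a peak, and 3 of them had a miR-19 peak: Socs1, an inhibitor of JAK-STAT signalling, Tgfbr2, the type II TGF-beta receptor, and Rnf11, a ubiquitin ligase adaptor. Of 13 listed miR-18 targets, 9 had a peak and Irf2 alone had a miR-18 peak. Of 14 listed miR-25/92 targets, 6 had a peak and 3 had a miR-25/92 peak: Bcl2l11, the pro-apoptotic BH3 protein Bim, Klf4, an epithelial transcription factor, and Tob1, an antiproliferative deadenylation factor. The highest such peak of each was an 8mer in the 3′ UTR. Bcl2l11 had a median of 36.6 in G12D tumours and 17.3 in WT tumours, Klf4 18.8 in G12D tumours and 21.9 in WT tumours, and Tob1 76.6 in G12D tumours and 23.7 in WT tumours. Socs1 had a median of 102 in G12D tumours and 51.9 in WT tumours, Tgfbr2 22.8 in G12D tumours and 13.3 in WT tumours, Rnf11 27.7 in G12D tumours and 13.3 in WT tumours, and Irf2 9.94 in G12D tumours and 4.75 in WT tumours. For Irf2, 5 of 6 G12D samples were above all WT samples, and for the others the genotypes overlapped more. The Irf2, Tgfbr2 and Rnf11 peaks were in the G12D peak list alone, so their direction is not independent of how they were found.

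Pathway genes were counted in the same way. Of 22 listed genes that restrain the cell cycle or act in apoptosis, 15 had peaks, and the 4 with a peak of the 3 families, Bcl2l11, Btg2, Tob1 and Tob2, all had miR-25/92 sites and none a miR-18 or miR-19 site. Btg2, an antiproliferative relative of Tob1, had a pair of miR-25/92 8mers in its 3′ UTR, with medians of 87.8 and 78.8 in G12D tumours, against 37.3 and 50.4 in WT tumours. In the TGF-beta and BMP list of 23 genes, 13 had peaks and 4 had a peak of the 3 families. Tgfbr2 and the activin receptor Acvr1b had miR-19 sites, the inhibitory Smad6 a miR-18 site, and Skil, a repressor of SMAD transcription, both. In limma, 0 peaks of any of these lists passed the threshold in either direction, as for all peaks. Relative to all tested peaks, the median log2 fold change of all peaks on the genes of a list was 0.02 for apoptosis and cell cycle and 0.0088 for TGF-beta and BMP, and for the reported targets 0.24 for miR-18, 0.04 for miR-19 and −0.03 for miR-25/92. For the marker lists it was −0.18 for colon epithelium, 0.37 for the fibroblast and smooth muscle list and −0.50 for the leukocyte list. The 0.37 rests on 4 genes, all collagens, and the −0.50 on 3 peaks of H2-Eb1 alone. The part of these in the results was not tested.

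Of 432 genes, 21 had sites of 2 or more of the 3 families. In 10 of them a single peak held sites of 2 families, and in 11 the sites lay in separate peaks only. Itga6 alone had sites of all 3, in separate peaks. Itga6, the alpha-6 integrin that binds laminin, had a miR-19 8mer peak at chr2:71856160-71856212, a miR-25/92 8mer peak at chr2:71856432-71856498 and a miR-18-3p/miR-7069-3p 7m8 peak at chr2:71857631-71857680. They ranged from 92.6 to 230, from 67.1 to 112 and from 6.84 to 10.6 normalised counts in G12D tumours, and from 2.41 to 124, from 12.1 to 100 and from 0 to 9.47 in WT tumours. miR-19 and miR-25/92 shared 4 genes, Fosl2, Itga6, Mef2d and Tgif1, 3 of which encode transcription factors, always in separate peaks, and these were 2.13% of the miR-19 genes and 2.31% of the miR-25/92 genes. miR-19 and miR-17 shared 54 genes, 28.7% of the miR-19 genes and 15.0% of the miR-17 genes, but in 41 of the 54 a single peak held both sites. The words of these families can share letters, but peak sequence was not read, so whether they do in these peaks was not tested.

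Of the peaks with sites of 2 families, Skil and Lif were among the highest after Wdr11 and Sertad3. Skil had an 8mer and a 7m8 to miR-19 and 7m8 matches to miR-18-3p/miR-7069-3p, miR-130/miR-301 and miR-17, with medians of 150 in G12D tumours and 79.5 in WT tumours. Lif, a cytokine of the interleukin-6 family, had 7m8 matches to miR-18-5p and miR-19 and an 8mer to miR-17, all families of the same precursor. It ranged from 50.9 to 199 in G12D tumours and from 9.06 to 112 in WT tumours, and 5 of 6 G12D samples were above all WT samples. Crebl2, a bZIP protein with a miR-18-5p 8mer and a miR-19 7m8, had medians of 47.0 in G12D tumours and 23.6 in WT tumours. Of the 6 genes with 2 miR-25/92 peaks, Pnisr, a serine- and arginine-rich protein, had medians of 37.0 and 27.0 in G12D tumours, against 19.2 and 19.4 in WT tumours, and the genotypes overlapped in both.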

How the data were processed

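HEAP mRNA and miRNA libraries of 6 G12D and 6 WT samples were used, and the input-control libraries were not analysed here. The deposited signal values are reads per feature scaled by the authors for library size, as read from the values themselves: dividing by the worth of 1 read gave whole reads for 100% of values, within 0.001 reads. Per the submitters' processing notes, STAR 2.5.2b and DESeq2 were used with mm10 and GRCm38, and no peak caller is named in what was used here. The authors' deposited table also holds log2 fold changes, p-values and a test score. The score column of the deposited peak lists was not used. Values plus 1 were taken to log2 and fitted with limma 3.58.1 (R 4.3.3), with batch as a covariate, over all 7527 peaks averaging 5 or more and all 284 miRNAs averaging 10 or more. Tests were two-sided, and p-values were adjusted by Benjamini-Hochberg with a threshold of 0.05. Fold changes are on the log2(value + 1) scale. For low peaks they depend on the added 1 and on values of 0 in the shallow WT replicates 5 and 6, and can exceed the ratio of means: the median over all tested peaks was 1.33, against 0.88 with a pseudocount of 5 and 0.86 in DESeq2. The count models edgeR 4.0.16 and DESeq2 1.42.0 took the recovered reads, as alternatives. The fit was tested on simulated data.

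The members and gene lists were chosen with earlier results of these data known. Peaks named in the text are, for each family, the 6 of highest mean, the 3 of smallest unadjusted p with a mean of at least 20, the highest member peak of each gene among its reported targets, up to 3 genes with the most member peaks, the 5 highest peaks with sites of 2 families, and the highest member peak of each pathway list. Exceptions are said to have been chosen after their values were seen, as were Itga6 and the genes shared by families. Alternatives were the pseudocount (0.5 and 5), no filter, no batch term, TMM factors, a replicate block, each sample left out, WT replicates 5 and 6 left out, each batch alone, 8mer sites only, peaks of 1 family only and 3′ UTR peaks only. Added after the data were seen were DESeq2 without WT replicates 5 and 6, the miRNA fit without them, and miR-18-5p sites alone. The result of 1 further pathway list is not reported here.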

Additional observations from a re-analysis of the deposited data

Results flagged for a closer look

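In 14 of 118 groups of 6 samples, 1 sample lay far from the others, with a gap of more than 0.625 of the group's range. For independent groups of normally distributed values, about 1 in 20 would pass that limit. These groups share the same libraries and hold counts not taken to log2, and some peaks were picked for a small p. The 14 of 118 is therefore a description and not a test against that rate. All 14 were WT groups, and 11 of them were WT replicate 4. In that sample the Iffo2 peak was at 719 normalised counts (other WT samples 22.6 to 132), Mynn at 36 (0 to 8.95), Nedd9 at 70.6 (0 to 16.6), Nbeal2 at 337 (54.4 to 123), Dhx32 at 97.3 (18.1 to 35.7), Socs1 at 195 (4.53 to 73.9), Rnf11 at 40.5 (0 to 15.2), a Tnrc6a peak at 23.7 (0 to 6.85), Tax1bp1 at 927 (13.6 to 242), Gata6 at 32.6 (0 to 10.1) and Bcl2l11 at 72.1 (4.53 to 19.6). WT replicate 4 was the highest WT sample for 55.0% of the 451 tested peaks of the 3 families and for 51.5% of all tested peaks. The Osbpl2 peak was at 1228 in WT replicate 5 (37.9 to 299 in the other WT samples). In WT replicate 6, H19 was at 2615 (115 to 812) and Klf4 at 55.4 (7.83 to 22.7).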

How the results depend on the processing

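The count of peaks of the 3 families past the threshold was 0 in limma, as for all tested peaks. With a pseudocount of 5 the count was 25 (5.54%, against 6.82% of all tested peaks). In batch 2 alone it was 16 (3.64%, against 3.55%), and with DESeq2 39 (8.65%, against 10.5%). DESeq2's own size factors gave 1 (0.222%, against 1.58%). DESeq2 without WT replicates 5 and 6, chosen after the data were seen, gave 12 (2.66%, against 2.7%). With 1 sample left out the count ran from 0 to 221, the highest being without WT replicate 4 (49.0%, against 45.3%). Relative to all peaks, the family medians stayed between −0.13 and 0.02 for miR-18, −0.06 and 0.17 for miR-19 and −0.14 and 0.04 for miR-25/92, and the 0.17 of miR-19, in batch 1 alone, was the one value that moved by more than the spread. The genotype difference in the share of signal on miR-25/92 peaks was 0.15 percentage points of all peak signal. Over 3′ UTR peaks only, as a share of the signal on 3′ UTR peaks, it was −0.75 percentage points. These are shares of different totals. Of the miRNAs, 1 passed with DESeq2, 1 with DESeq2's own size factors (9.86% of all 284 tested), 0 with DESeq2 without WT replicates 5 and 6 (7.04%) and 0 to 1 with 1 sample left out, the 1 being without WT replicate 3 (5.63%). The cause of these changes was not tested. Deviations of same-numbered samples correlated from −0.52 to 0.31 in the mRNA libraries and from −0.36 to 0.30 in the miRNA libraries. Such correlations cannot settle whether the numbers pair the samples, and the labels do not say. A fit with the replicate number as a block left 0 peaks and 0 miRNAs past the threshold, and the adjusted p of miR-18a-5p at 0.109. Among the 16 peaks and 8 miRNAs given a fold change, the sign turned for 4 miRNAs with fold changes near 0. In batch 2 alone miR-19a-3p was at −0.0988 and miR-19b-3p at −0.199. With TMM factors miR-32-5p was at 0.0027, and without WT replicates 5 and 6 miR-92b-3p was at 0.0301. With 1 sample left out, miR-19b-3p ran from −0.0667 to 0.0895, miR-32-5p from −0.0803 to 0.0241 and miR-92b-3p from −0.253 to 0.0432. Depth limits the low peaks, since 1 read was worth up to 4.53 normalised counts in WT replicate 5.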
